A study of Rattus norvegicus with 12 samples.

Results

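Transcripts of the response to low oxygen and of glucose breakdown were followed in OC1 cells given siRNA against Bcl-2: Hif1a (ENSRNOG00000008292), Vegfa (ENSRNOG00000019598), Slc2a1 (ENSRNOG00000007284) and Ldha (ENSRNOG00000013009). They are 4 of the 23978 gene IDs in the count table, were set by their IDs with no threshold on a value, though with earlier results of these data known, and all 4 passed the filter on low counts that left 12731 genes to test. The table holds IDs alone, and the reference table of rat genes used here contains 0 of them, so the symbols are those supplied with the IDs and were not checked against a reference. OC1 is labelled as a rat line of the sensory epithelium of the cochlea. Its markers and the level of Bcl2 itself were not analysed here, since no other ID could be given a symbol. HEI-OC1, a line whose name is close to this one, comes from the mouse, and whether the cells used here are HEI-OC1 could not be told from the labels. If they were, the counts would also depend on how well mouse reads of each gene map to the rat genome, and the rat promoters printed here would not be those of the cells; this was not tested. The labels call the genotype wild type in control cells and a Bcl-2 knockdown in the others. The control cells received a control siRNA (4 libraries), and the others received siRNA 1423 (4 libraries) or siRNA 1928 (4 libraries), each directed at Bcl-2 and delivered with a lipid reagent. The treatment tag in all 12 labels names a plasmid instead, whereas siRNA is what their protocol and descriptions give and what is used here. Replicates are lettered A to D, with no statement that they were separate cultures. The p-values therefore cover the spread among these samples alone, and that spread may be technical.

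Hif1a encodes the oxygen-regulated subunit of the transcription factor HIF-1. When oxygen is sufficient, prolyl hydroxylases mark the HIF-1 alpha protein for destruction through the VHL ubiquitin ligase, so that its activity is set mainly at the level of protein, which was not measured here. When oxygen is low, the protein pairs with ARNT and binds hypoxia response elements, whose core reads ACGTG or GCGTG. Vegfa, a secreted growth factor for blood vessels, Slc2a1, the glucose transporter GLUT1, and Ldha, a subunit of the lactate dehydrogenase that turns pyruvate into lactate, are all known targets of HIF-1. GLUT1 also carries glucose across the barrier between blood and the inner ear.

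The promoter sequences of the 3 target genes are shown because they carry, or lack near the start, the core to which HIF-1 binds. Each is the 250 bases before the annotated start, 5′ to 3′, from RefSeq on assembly GRCr8, which is not the build (mRatBN7.2) named in the submitters' processing notes. Capitals mark every ACGTG or GCGTG on either strand.
Vegfa: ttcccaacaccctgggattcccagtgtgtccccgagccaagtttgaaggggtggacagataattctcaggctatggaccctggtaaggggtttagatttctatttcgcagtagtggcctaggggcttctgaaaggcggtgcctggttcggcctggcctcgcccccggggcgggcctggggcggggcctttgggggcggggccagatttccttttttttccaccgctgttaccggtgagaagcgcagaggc
Slc2a1: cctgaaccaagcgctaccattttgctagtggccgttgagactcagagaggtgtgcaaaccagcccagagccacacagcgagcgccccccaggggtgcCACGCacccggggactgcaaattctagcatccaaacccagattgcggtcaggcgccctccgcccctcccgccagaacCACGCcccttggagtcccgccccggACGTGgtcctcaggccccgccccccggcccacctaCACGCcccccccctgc
Ldha: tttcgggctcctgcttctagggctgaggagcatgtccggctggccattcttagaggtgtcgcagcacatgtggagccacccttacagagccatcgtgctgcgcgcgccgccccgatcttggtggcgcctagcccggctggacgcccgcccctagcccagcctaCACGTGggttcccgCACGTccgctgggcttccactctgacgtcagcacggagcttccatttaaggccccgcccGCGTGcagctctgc
The Vegfa window (chr9:22452604-22452853, plus strand) held 0 matches, and so did the window of its second annotated start. The Slc2a1 window (chr5:138002272-138002521, plus strand) held 1 match to ACGTG and 3 to GCGTG, beginning 51, 153, 76 and 16 bases before the start. The Ldha window (chr1:106507842-106508091, plus strand) held 3 matches to ACGTG and 1 to GCGTG. One pair of the ACGTG matches in Ldha is the palindrome CACGTG read on both strands, which is also the E-box that MYC and other factors bind. Among 33469 rat windows of the same length, 36.7% held at least 1 match and 6.21% held 3 or more. These are matches of letters only, the windows of the 3 genes were richer in G and C (60.4% for Vegfa, 68.4% for Slc2a1 and 66.4% for Ldha) than the median window (51.2%), and 0 matches says nothing of elements elsewhere in a gene. The window of Hif1a held 3 matches to ACGTG, of which 1 pair is likewise a CACGTG read on both strands. That window is not printed because it lies inside the annotated span of the gene.

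With siRNA 1928 the 4 genes differed in direction, while with siRNA 1423 all 4 had negative log2 fold changes of like size (-0.13 to -0.086), of which those of Hif1a and Ldha passed the test. Relative to control siRNA, Vegfa rose with siRNA 1928 and Ldha fell with both siRNAs. Hif1a fell with siRNA 1423, showed no detectable change with siRNA 1928 and was higher with the latter than with the former. Slc2a1 passed no test in any of the 3 comparisons. All changes were small, the largest being the gap in Vegfa between the siRNAs, at 1.33-fold. Levels are given as counts per 1000000 (CPM) scaled by trimmed means of M values (TMM), and a gene is called changed at a Benjamini-Hochberg adjusted p under 0.05 in edgeR's quasi-likelihood test over all 12731 genes. Library totals ran from 15671546 to 23247593 expected counts. Gene lengths were not used, so CPM are compared between groups for 1 gene and never between genes.

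**Figure D1:**
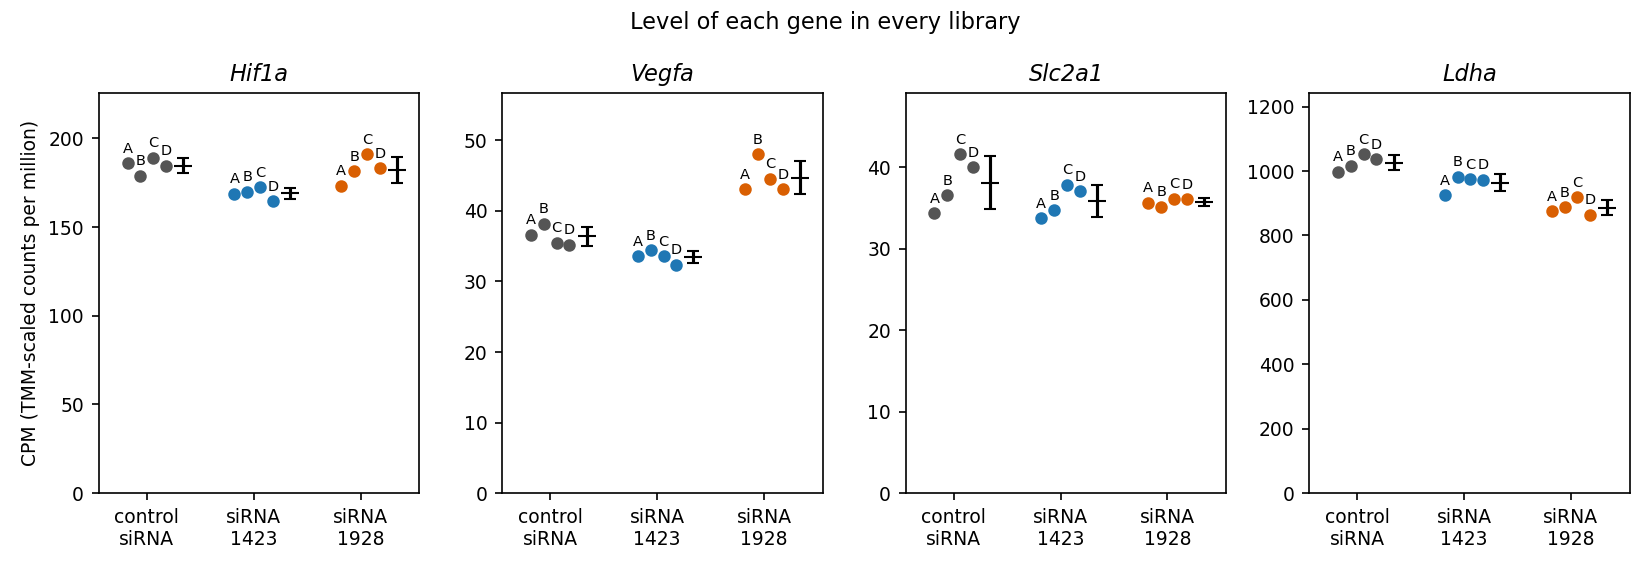
Level of each gene (CPM, linear axis from 0) in the 12 libraries, by group, with the replicate letter above each point. Black bars give the mean and SD of 4 libraries. The 4 Vegfa libraries of siRNA 1928 sit between 43.0 and 48.0 CPM, above all others, and the Ldha libraries of siRNA 1928 lie below those of siRNA 1423, which lie below those of the control group.

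With siRNA 1423, 2 of the 4 were called, both lower, where 22.8% of all genes were called and 11.5% were called lower. In that comparison 3 of the 4 had no overlap with the control libraries, against 23.7% of all genes. With siRNA 1928, 1 member was called higher and 1 lower, where 45.2% of genes were called (21.8% higher and 23.3% lower), and 2 of 4 had no overlap, against 39.4%. Between the siRNAs 3 of 4 were called, 2 higher and 1 lower with siRNA 1928, where 44.3% of genes were called (21.3% higher and 23.0% lower), and 3 of 4 had no overlap, against 39.9%. The last comparison shares libraries with each of the others, as those share the controls.

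Hif1a, the regulator, was lowest with siRNA 1423. The control libraries A to D held 186, 179, 189 and 185 CPM. With siRNA 1423 the values were 168.9, 169.9, 172 and 165 CPM, and with siRNA 1928 they were 173, 182, 191 and 183 CPM. Every library of siRNA 1423 lay below every control library and below every library of siRNA 1928, while the ranges of siRNA 1928 and control overlapped. Control libraries averaged 185 ± 4.22 CPM, those of siRNA 1423 169 ± 3.21 CPM and those of siRNA 1928 182 ± 7.26 CPM (SD, n = 4 each).

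The fall of Hif1a with siRNA 1423 was a log2 fold change of -0.13 (SE 0.0324, edgeR adjusted p = 0.00601), so the level fell by 8.52%, with a 95% interval from -12.7% to -4.15%. With siRNA 1928 the log2 fold change was -0.020 (SE 0.0322, edgeR adjusted p = 0.654). The interval of that difference ran from -5.82% to 3.32%. Between the siRNAs, Hif1a was higher with siRNA 1928 by 0.11 on the log2 scale (SE 0.0324, edgeR adjusted p = 0.0092). In order of level, control and siRNA 1928 did not differ beyond their spread and siRNA 1423 stood below both. With replicates A and B alone, neither call held (log2 -0.11, adjusted p = 0.106, against control and 0.065, adjusted p = 0.265, between the siRNAs), while with C and D alone both did (-0.15, adjusted p = 0.00538, and 0.15, adjusted p = 0.00232). These fits hold fewer libraries per group. Their SEs were 0.0430 and 0.0383 against control, and 0.0432 and 0.0381 between the siRNAs. Whether A and B differ from C and D in these comparisons was not tested. With library size alone in place of TMM the gap between the siRNAs was 0.17 (adjusted p = 0.000138), and the uncalled difference of siRNA 1928 from control changed sign, to 0.037 (adjusted p = 0.357).

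Vegfa, the secreted growth factor, was highest with siRNA 1928. Control libraries A to D held 36.6, 38.2, 35.5 and 35.2 CPM. Those of siRNA 1423 held 33.6, 34.5, 33.6 and 32.3 CPM, and those of siRNA 1928 held 43.04, 47.99, 44.6 and 43.06 CPM. The 3 groups did not overlap anywhere, with siRNA 1928 at the top, control in the middle and siRNA 1423 at the bottom. The share of all genes with the 3 groups apart was not computed. The group means were 36.4 ± 1.34, 33.5 ± 0.870 and 44.7 ± 2.33 CPM (SD, n = 4 each) for control, siRNA 1423 and siRNA 1928.

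Vegfa rose 1.23-fold with siRNA 1928, a log2 fold change of 0.29 (SE 0.0466, edgeR adjusted p = 2.14e-05), with an interval of 1.15-fold to 1.31-fold. With siRNA 1423 its log2 fold change was -0.12 (SE 0.0485), which did not pass the test (edgeR adjusted p = 0.0839) although all 4 libraries were below all 4 controls. The gap between the siRNAs was 0.41 (SE 0.0474, edgeR adjusted p = 2.72e-07), or 33.2% with an interval of 24.4% to 42.6%. Of the 17 alternatives run for each of these comparisons, all 17 kept the rise with siRNA 1928 (log2 0.26 to 0.35) and all 17 kept the gap between the siRNAs (0.38 to 0.48). The difference with siRNA 1423 was negative and short of the threshold in all 17, with adjusted p from 0.0585 to 0.319.

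Slc2a1, the glucose transporter, showed no difference that passed the test. The control libraries A to D held 34.4, 36.6, 41.6 and 39.996 CPM. With siRNA 1423 they held 33.7, 34.8, 37.9 and 37.1 CPM, and with siRNA 1928 35.6, 35.2, 36.14 and 36.12 CPM. All 3 groups overlapped, and the controls were the most spread, at 38.1 ± 3.26 CPM, against 35.9 ± 1.94 CPM for siRNA 1423 and 35.8 ± 0.458 CPM for siRNA 1928 (SD, n = 4 each). The control spread of 8.54% of the mean was wider than the 3.66% that counting alone would give. It was 5.41% against 3.91% with siRNA 1423, and 1.28% against 3.76%, below counting, with siRNA 1928.

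The log2 fold changes of Slc2a1 were -0.086 (SE 0.0565, edgeR adjusted p = 0.301) with siRNA 1423 and -0.092 (SE 0.0561, edgeR adjusted p = 0.191) with siRNA 1928. Their intervals ran from -13.1% to 2.21% and from -13.5% to 1.70%. The gap between the siRNAs was -0.0062 (edgeR adjusted p = 0.942), with an interval from -8.25% to 8.06%, and with library size alone it was 0.057 (adjusted p = 0.431). In each of the 3 groups, replicates C and D both lay above A and B, with means of 40.8 and 35.5 CPM for control, 37.5 and 34.2 CPM with siRNA 1423 and 36.1 and 35.4 CPM with siRNA 1928. The labels do not say what the letters stand for. The comparison of siRNA 1928 with control depended on these libraries. It was -0.00013 (adjusted p = 0.999) with A and B alone, -0.18 (adjusted p = 0.026) with C and D alone, -0.14 (adjusted p = 0.0362) without control replicate A and -0.045 (adjusted p = 0.569) without control replicate C. That of siRNA 1423 with control moved likewise, to -0.14 (adjusted p = 0.0771) without control replicate A and -0.038 (adjusted p = 0.709) without control replicate C.

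Ldha, the lactate dehydrogenase subunit, was lower with both siRNAs and lowest with siRNA 1928. The control libraries A to D held 998, 1016, 1052 and 1036 CPM. With siRNA 1423 the values were 925, 982, 975 and 973 CPM, and with siRNA 1928 they were 876, 887, 919 and 865 CPM. Again the 3 groups did not overlap anywhere, and the share of all genes for which this holds was not computed. The order from high to low was control, siRNA 1423, siRNA 1928. Means, in that order, were 1025 ± 23.4, 964 ± 26.2 and 887 ± 23.1 CPM (SD, n = 4 each).

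With siRNA 1928 Ldha fell by 13.5% (log2 fold change -0.21, SE 0.0281, edgeR adjusted p = 2.41e-06), with an interval from -16.9% to -9.95%. With siRNA 1423 it fell by 6.00% (log2 fold change -0.089, SE 0.0281, edgeR adjusted p = 0.0245), with an interval from -9.72% to -2.12%. The gap between the siRNAs was -0.12 on the log2 scale (SE 0.0281, edgeR adjusted p = 0.00138). The fall with siRNA 1928 passed the test in all 17 alternatives (log2 -0.23 to -0.15). That with siRNA 1423 lost its call without siRNA 1423 replicate A (-0.071, adjusted p = 0.104), control replicate C (-0.077, adjusted p = 0.0784) or control replicate D (-0.084, adjusted p = 0.0667) and with replicates A and B alone (-0.079, adjusted p = 0.157), and the gap between the siRNAs lost it with library size alone (-0.058, adjusted p = 0.0774).

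Ldha values may carry an uncertainty that those of the other genes do not show to the same degree. RefSeq lists 30 rat pseudogenes named after Ldha and 0 named after Hif1a, Vegfa or Slc2a1. All 12 of the deposited Ldha values were more than 1e-06 away from a whole number, against 9 of 12 for Hif1a, 6 of 12 for Vegfa and 2 of 12 for Slc2a1. Over all 23978 gene IDs, those with few or 0 reads included, it was 28.7% of values. These shares are not adjusted for the number of reads. Counts per library were also highest for Ldha (14331 to 24073) and next for Hif1a (2814 to 4439). At a tolerance of 0.01 the count for Vegfa was 2 of 12 and those of the other 3 genes were as before. Fractional values can arise where reads are divided between genes, and how the counting program did so is not given in the sources used here. The part of this in the Ldha result was not tested.

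**Figure D2:**
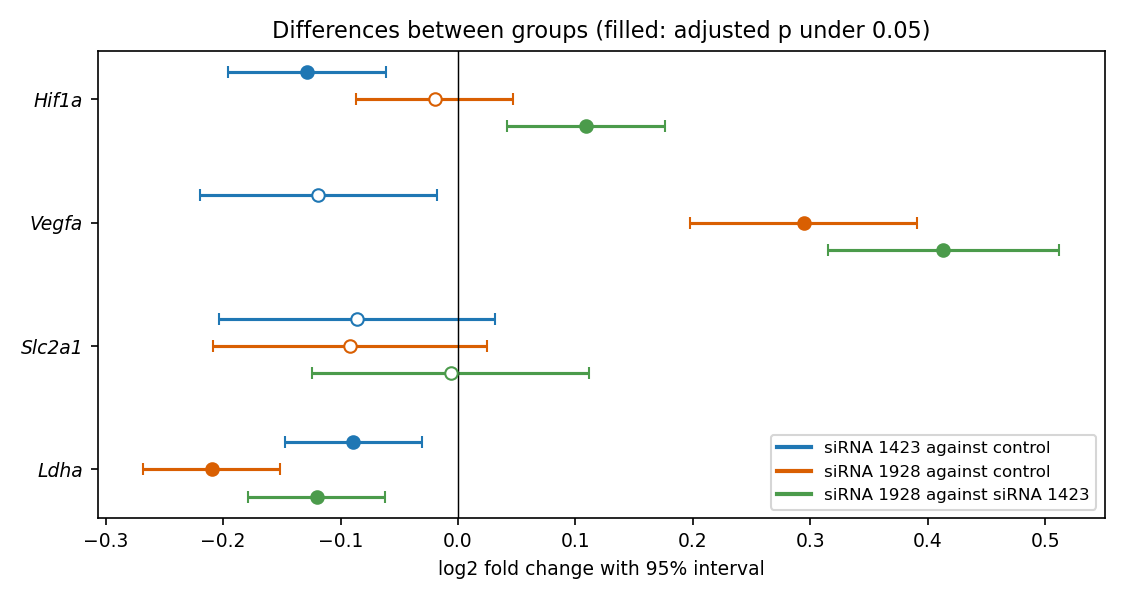
Log2 fold changes of the 4 genes in the 3 comparisons (points) with 95% intervals from the edgeR fit (bars). Filled points passed an adjusted p under 0.05, and the filled Vegfa points at 0.29 and 0.41 lie farthest from 0.

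The median log2 fold change of the 4 genes was -0.10 with siRNA 1423, -0.056 with siRNA 1928 and 0.051 between the siRNAs, beside -0.0012, 0.0034 and 0.0036 over all genes tested. The median absolute log2 fold change was 0.10, 0.15 and 0.11 for the 4 genes and 0.096, 0.15 and 0.14 for all genes. The rise of Vegfa with siRNA 1928 was larger in absolute size than the changes of 76.9% of all tested genes and of 59.9% of the called ones. For Ldha with siRNA 1928 these shares were 64.0% and 38.6%. The fall of Hif1a with siRNA 1423 exceeded 61.7% of all genes and 16.1% of the called ones.

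**Figure D3:**
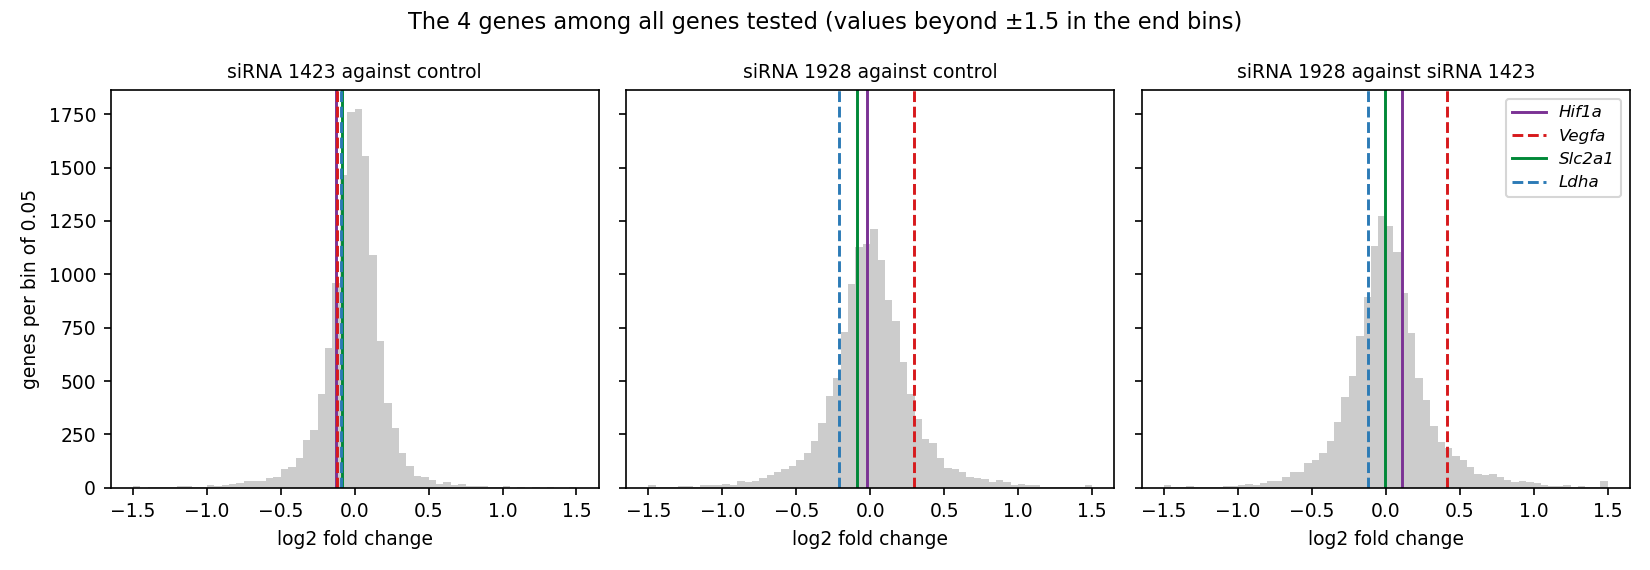
Histograms of log2 fold changes over all 12731 tested genes (grey, genes per bin) in the 3 comparisons, with 1 vertical line per gene. In the left panel all 4 lines lie between -0.13 and -0.086 and partly cover each other; in the middle and right panels Vegfa stands to the right of the other 3, at 0.29 and 0.41.

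Ratios between the genes within a library do not depend on how libraries are scaled, and were computed from the deposited counts after the levels had been seen. They show unequal change and not which gene moved. The log2 ratio of Vegfa to Hif1a counts in libraries A to D was -2.34, -2.23, -2.41 and -2.39 in the control group and -2.33, -2.30, -2.36 and -2.35 with siRNA 1423. With siRNA 1928 it was -2.01, -1.92, -2.10 and -2.09, above every library of the other groups. It differed from control by 0.32 with siRNA 1928 and by 0.0095 with siRNA 1423. Leaving out 1 library gave 0.28 to 0.35 for the former, and for the latter -0.014 (without control replicate C) to 0.048 (without control replicate B), with no settled sign. The log2 ratio of Ldha to Hif1a was 2.47 ± 0.0348, 2.51 ± 0.0465 and 2.28 ± 0.0415 for control, siRNA 1423 and siRNA 1928 (SD, n = 4 each), and all 4 libraries of siRNA 1928 were below the other 8. That of Slc2a1 to Hif1a was -2.28 ± 0.113, -2.24 ± 0.0821 and -2.35 ± 0.0509, with overlap in all comparisons.

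Of the 18 comparisons of the 6 possible ratios, 9 had no overlap. The same share over other pairs of genes was not computed, and single genes without overlap were also more frequent in the comparisons with siRNA 1928 (39.4% and 39.9%) than with siRNA 1423 against control (23.7%), so the count is not read as particular to these genes. Each of the 9 had a two-sided exact permutation p of 0.0286, the smallest that 4 against 4 libraries can give. The adjusted p over the 18 was 0.0571, which does not pass 0.05. It rests on how many of the 18 reach that smallest p, and so decides nothing about a single ratio. The 18 share genes and libraries and are not separate results. All 9 involved siRNA 1928, and each held Vegfa or Ldha, the genes called with that siRNA. The widest was Ldha to Vegfa, lower with siRNA 1928 than with control by a log2 difference of -0.51 and than with siRNA 1423 by -0.53, with both groups of 4 libraries fully apart. With siRNA 1423 against control the 6 ratios differed by -0.0030 to 0.041, and every one overlapped. Leaving out 1 library at a time, these 6 values ran from -0.034 to 0.087, and 4 of them changed sign.

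**Figure D4:**
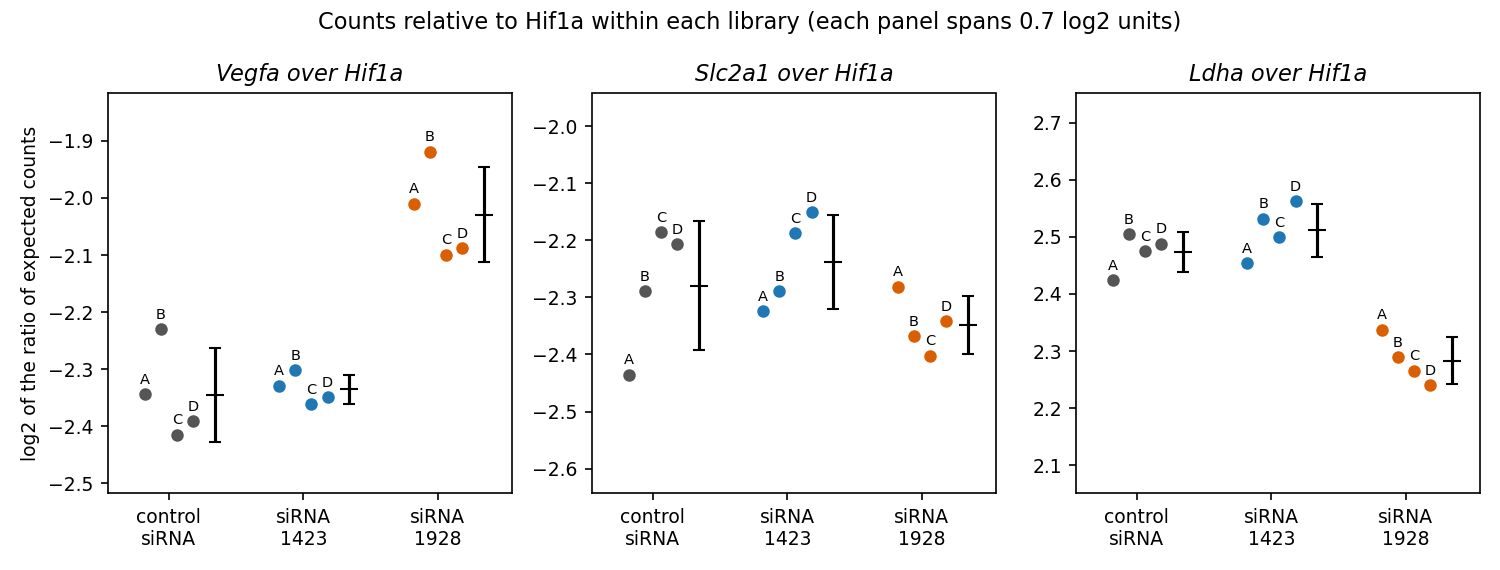
Log2 ratios of expected counts of Vegfa, Slc2a1 and Ldha to those of Hif1a in each of the 12 libraries, with replicate letters, and the mean and SD of 4 libraries (black). Each panel spans the same height, and siRNA 1928 lies above the other groups for Vegfa and below them for Ldha.

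Across the 12 libraries, which share groups and scaling, the log2 CPM of Vegfa and Ldha had a Pearson r of -0.68, which became -0.018 after the group means were taken out. For Slc2a1 and Ldha r was 0.58, and 0.66 without the group means, and for Hif1a and Vegfa it was 0.50 and 0.035. The other pairs went from 0.13 to 0.45 (Hif1a and Ldha), from -0.24 to -0.48 (Vegfa and Slc2a1) and from 0.36 to 0.23 (Hif1a and Slc2a1). They are descriptions of 12 libraries and are given without a test. For Vegfa the spread within a group, beside that of counting alone, was 3.70% of the mean against 3.75% in the control group, 2.60% against 4.04% with siRNA 1423 and 5.22% against 3.36% with siRNA 1928. For Ldha, whose counts were higher (14331 to 24073 per library), it was 2.28% against 0.706% in the control group.

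Of 10496 other genes that averaged 5 CPM or more, the one most like Vegfa over the 12 libraries, by Pearson r of log2 CPM, was ENSRNOG00000046912 (r = 0.97). Its means were 57.9, 55.5 and 65.8 CPM for control, siRNA 1423 and siRNA 1928. The one most like Ldha was ENSRNOG00000011603 (r = 0.98), with 52.4, 45.8 and 41.2 CPM in the same order, and the one most like Hif1a was ENSRNOG00000011254 (r = 0.93), with 80.7, 72.4 and 79.98 CPM. An r above 0.9 was found with 272 genes for Ldha, 190 for Vegfa, 8 for Hif1a and 2 for Slc2a1, whose closest gene reached 0.93. Group means were not taken out of these r, so genes with like differences between groups score high. Each gene given as most like is the highest of 10496. The files do not pair these IDs with names.

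**Figure D5:**
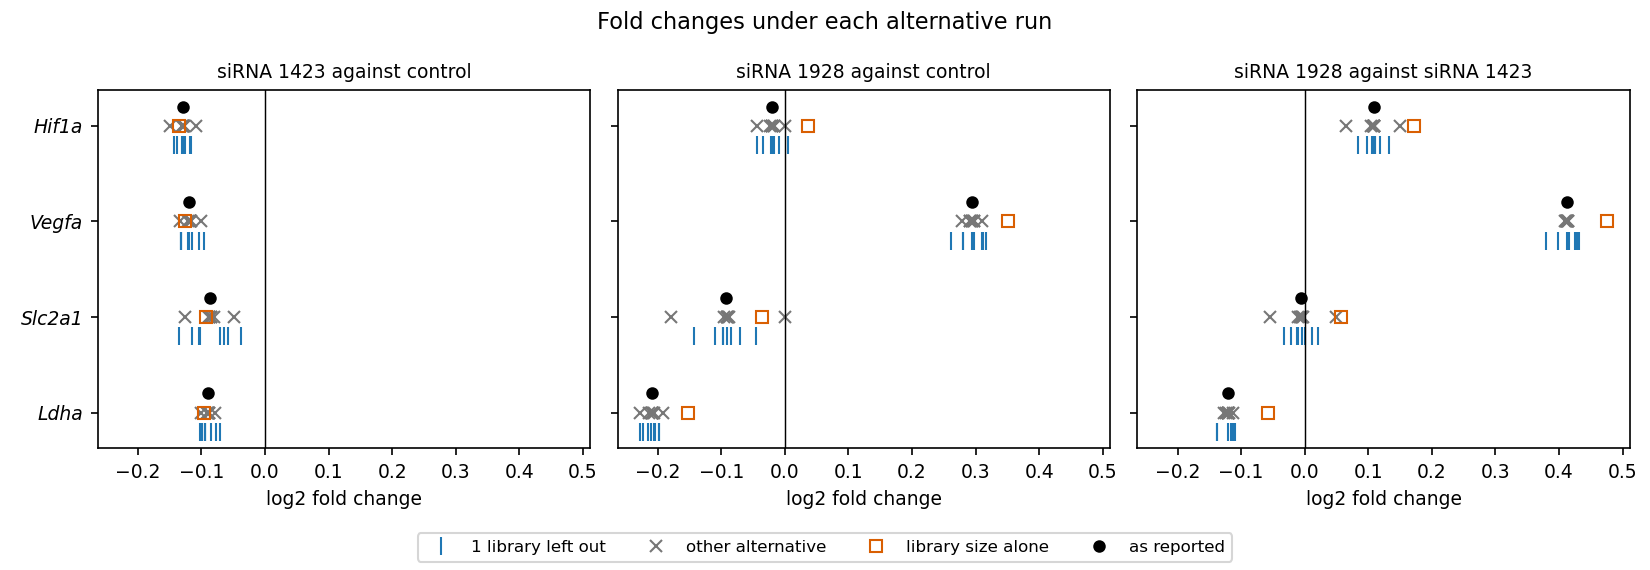
Log2 fold changes of the 4 genes in the 3 comparisons as reported (black), with 1 library left out (blue ticks), with library size alone in place of TMM (open squares) and under the other alternatives (grey crosses). With library size alone, all 4 genes shift to the right in the comparisons that involve siRNA 1928, and Vegfa stays above 0.26 there under all settings shown.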

How the data were processed

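Polyadenylated RNA of 12 libraries was sequenced with a strand-marking protocol, per the labels' protocols. The authors deposited expected counts (estimated counts) per Ensembl gene ID; this unit was read from the values. Build mRatBN7.2, bcl2fastq 2.20, fastp 0.21.0 and DESeq2 1.24.0 are named in the submitters' processing notes. For the aligner, the counting program and strand in counting, the method is not given in the sources used here. Libraries were grouped by the siRNA code in their titles.

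Counts were rounded, filtered with filterByExpr (minimum count 10, minimum total 15), scaled by TMM and tested with edgeR 4.0.16 (R 4.3.3; 1 mean per group, 12 libraries in 1 fit; Benjamini-Hochberg over 12731 genes). Intervals at 95% come from standard errors derived from the F statistic. Log2 CPM had a prior count of 2. Alternatives used limma 3.58.1, DESeq2 1.42.0, other scalings, filters and subsets of libraries. The scripts were tested on simulated data. Figures used matplotlib 3.10.9.

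The 4 members, the alternatives and the lists of related genes were chosen with earlier results of these data known. The lists could not be assigned without symbols and were not used here. The rule for names took the 4 members and, by Pearson r, the gene most like each, with at most 2 unnamed IDs that rose and 2 that fell, so that of Slc2a1 is not printed.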

Additional observations from a re-analysis of the deposited data

Results flagged for a closer look

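The response of 3 genes differed between the siRNAs by the test of the difference itself (siRNA 1928 minus siRNA 1423, log2 scale): 0.41 for Vegfa, 0.11 for Hif1a and -0.12 for Ldha. The value of Hif1a lost its call with replicates A and B alone and that of Ldha with library size alone. Ldha in replicate A of siRNA 1423, at 925 CPM, lay far below the other 3 libraries of its group (973 to 982 CPM). Of 12 groups of 4 values searched in this way, chance alone picks out about 1 in 20. Without that library the fall of Ldha with siRNA 1423 was -0.071 and did not pass the test.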

How the results depend on the processing

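Each of the 12 comparisons of a gene was recomputed under 17 alternatives. All 17 kept the direction and the side of the threshold for Vegfa in the 3 comparisons, for Ldha with siRNA 1928 and for Slc2a1 with siRNA 1423. Replicates A and B alone ended the calls of Hif1a with siRNA 1423 (-0.11) and between the siRNAs (0.065) and of Ldha with siRNA 1423 (-0.079), turned the sign of Slc2a1 between the siRNAs (0.049) and gave 1535 called genes with siRNA 1423 against 2903. Replicates C and D alone brought Slc2a1 with siRNA 1928 past the threshold (-0.18) and left Hif1a with siRNA 1928 at 8.66e-05, a change of sign. Fits on A and B alone or on C and D alone hold fewer libraries per group. A call lost or gained there does not show that these pairs of letters differ. Library size alone turned Hif1a with siRNA 1928 to 0.037 and Slc2a1 between the siRNAs to 0.057, and ended the call of Ldha between the siRNAs (-0.058). It moved the median log2 fold change of all genes by less than 0.1, to 0.060 with siRNA 1928 and 0.066 between the siRNAs, and the share of higher calls from 48.3% to 64.4% and from 48.1% to 66.4%. Leaving out 1 library gave -0.044 to 0.0042 for Hif1a with siRNA 1928, -0.033 to 0.022 for Slc2a1 between the siRNAs, -0.14 to -0.045 for Slc2a1 with siRNA 1928, -0.14 to -0.038 for Slc2a1 with siRNA 1423 and -0.10 to -0.071 for Ldha with siRNA 1423. The cause of these shifts was not tested. In the 9 ratios without overlap the direction held without each library in turn. Where groups do not overlap, leaving out 1 library cannot change the direction, so this adds nothing to the lack of overlap. The labels state no pairing by replicate letter, and the reported fit used none. Deviations of same-lettered libraries correlated weakly but always positively, at 0.03 to 0.13, and above 0.1 in 5 of 12 pairs. Of the 4 letters compared, 6 of 12 correlated best with their own. Any share of the letter therefore stays in the spread of the reported fit. A fit with the letter as a replicate block changed no call of the 4 genes (Vegfa 0.30 with siRNA 1928 and 0.41 between the siRNAs, Ldha -0.21 with siRNA 1928 and -0.089 with siRNA 1423, Hif1a -0.13 with siRNA 1423). It gave 3365, 6174 and 6017 called genes in the 3 comparisons, against 2903, 5752 and 5645 without the block. With siRNA 1423 the block lowered the SE of Ldha from 0.0281 to 0.0230 and that of Slc2a1 from 0.0565 to 0.0485. The term for A and B against C and D was added after the data were seen and changed no call of the 4 genes. For Vegfa (560 to 1036 counts per library) and Slc2a1 (562 to 952), standard errors of 0.047 to 0.057 limit what can be detected. For Slc2a1 counting is only a part of the spread in the control group, at 8.54% of the mean against 3.66% from counting. The spread was 5.41% against 3.91% with siRNA 1423, and 1.28% against 3.76%, below counting, with siRNA 1928. The SE of Slc2a1 with siRNA 1423 was 0.0565, and 0.0468 with the term for A and B against C and D.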
